A study of Mus musculus with 6 samples.

Results

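The messenger RNAs described here encode a pair of transcriptional coactivators and the small proteins that dock on them. Crebbp encodes the histone acetyltransferase CBP and Ep300 encodes its paralogue p300. Cited1, Cited2 and Cited4 are the measured members of the CITED family. The 5 genes were chosen by name, as the coactivator pair and its CITED partners, and each had 1 feature with a single gene symbol, so all 5 were found among the 22180 genes tested. Crebbp, the targeted gene, was carried by 1 named feature, and no other feature of the array named it.

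CBP and p300 acetylate histones and other proteins and serve as a meeting point for many transcription factors, which bind their TAZ, KIX and other domains. CITED proteins do not bind DNA by themselves. They attach to the first TAZ domain through an acidic C-terminal region, through which they serve as coactivators of TFAP2 factors, and CITED2 competes there with the hypoxia factor HIF1A, whose targets include Cited2 itself. CITED1 is known from melanocytes and from progenitors of the kidney, CITED2 from the development of heart, adrenal and neural tube, and CITED4 from heart muscle growth. Whether the loss of one acetyltransferase is accompanied by a change of its paralogue is a common question, since CBP and p300 share many partners.

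RNA was taken from 6 mouse medulloblastomas, tumours of the cerebellum, and 1 Affymetrix whole-transcript array was made per tumour. The 3 wild type tumours had the genotype Math1Cre::SmoM2Fl/+ and the 3 knockout tumours the genotype Math1Cre::CrebbpFl/FlSmoM2Fl/+. Both groups thus carry SmoM2, a mutant of Smoothened that keeps Sonic hedgehog signalling switched on, and a tamoxifen-dependent Cre recombinase (named Math1CreERT2 in the sample descriptions) under control of Math1, also called Atoh1, the gene of granule neuron progenitors. Tamoxifen (1 mg) was injected at postnatal day 5 in both groups, and tumour tissue was taken at postnatal day 60. The label for age gives postnatal day 5, which was read here as the day of induction. The recombinase acts in cells of the Math1 lineage, so blood vessels, microglia and other cells of the tumour keep Crebbp. In whole tumours, fewer cells of a type and less RNA per cell cannot be told apart. Nothing in the labels ties the tumours to single animals or litters, and the p-values therefore measure the spread between these samples alone, which may be technical.

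The groups also differed in transcripts that mark sex, which the labels do not give. Log2 levels of Xist, the RNA of the inactive X chromosome, were 5.13 to 5.74 in wild type and 12.26 to 12.45 in knockout tumours, and the Y-linked gene Kdm5d had 9.32 to 9.37 and 4.59 to 4.75. The male pattern was thus found in all wild type and the female one in all knockout arrays, and in every comparison below the effect of genotype cannot be told apart from that of sex. Over all genes, 46 passed an adjusted p of 0.05 (0.207% of those tested), 28 higher (0.126%) and 18 lower (0.0812%) in knockout tumours. This count was 12, 18 and 99 without wild type replicates 1, 2 and 3, and 15, 128 and 4 without knockout replicates 1, 2 and 3. None of the 5 genes was among the 46.

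To show the family at the level of DNA, the 250 bases before the outermost annotated start of each CITED gene are given as RefSeq holds them for GRCm38.p6. They were searched on both strands for ACGTG (a form of the core of the hypoxia response element), TGACG (part of the CREB site), TATAA and CCAAT. Capitals mark the matches. Other forms of the hypoxia core, such as GCGTG, were not searched for, so windows without ACGTG may still hold them. Cited2 was of interest here as a known target of HIF, and the values of other HIF targets are described with the gene lists. The Cited1 sequence lies on the minus strand at chrX:102252182-102252431, that of Cited2 on the plus strand at chr10:17722978-17723227, and that of Cited4 on the plus strand at chr4:120666313-120666562.
Cited1: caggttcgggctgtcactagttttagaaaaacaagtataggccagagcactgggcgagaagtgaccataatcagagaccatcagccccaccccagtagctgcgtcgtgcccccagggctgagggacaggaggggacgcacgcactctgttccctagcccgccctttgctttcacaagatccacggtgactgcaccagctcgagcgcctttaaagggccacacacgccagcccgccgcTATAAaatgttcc
Cited2: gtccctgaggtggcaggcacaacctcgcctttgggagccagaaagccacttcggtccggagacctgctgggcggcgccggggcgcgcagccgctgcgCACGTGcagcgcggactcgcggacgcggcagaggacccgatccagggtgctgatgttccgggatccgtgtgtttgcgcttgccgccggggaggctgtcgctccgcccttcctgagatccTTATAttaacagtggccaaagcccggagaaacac
Cited4: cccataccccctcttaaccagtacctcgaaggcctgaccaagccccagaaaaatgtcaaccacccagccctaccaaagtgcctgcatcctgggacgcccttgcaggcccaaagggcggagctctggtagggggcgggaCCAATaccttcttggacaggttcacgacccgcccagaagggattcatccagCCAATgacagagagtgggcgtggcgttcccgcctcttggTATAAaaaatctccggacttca

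The 3 sequences share a TATAA match near the start. It begins 13 bases before the start in Cited1, 34 in Cited2 (on the opposite strand) and 22 in Cited4. Of 32851 windows of the same length in the promoter table, 22.8% held TATAA at any position on either strand. The share with a match near the start was not counted. ACGTG was found in the Cited2 window, where CACGTG reads the same on both strands and so counts on each, beginning 153 and 152 bases before the start. ACGTG was in 16.6% of all windows, and the Cited1 and Cited4 windows did not hold these letters. CCAAT was found only in the Cited4 window among the 3, 112 and 61 bases before the start, and in 33.8% of all windows. TGACG was in none of the 3, and in 17.8% of all. The Cited2 window had 26 CG dinucleotides and 66.8% G and C, against 13 and 58.0% for Cited1 and 10 and 58.0% for Cited4, and a median of 6.0 and 52.4% over all windows. A match is a description of these letters and shows no binding.

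The log2 level of Crebbp was 11.80, 11.76 and 11.70 in wild type replicates 1 to 3 and 11.24, 11.34 and 11.20 in knockout replicates 1 to 3. All knockout tumours lay below all wild type tumours, and the gap of 0.36 between the nearest values exceeded the range within either group (0.10 and 0.14). The groups of 19.6% of all genes did not overlap. Group means were 11.76 ± 0.05 and 11.26 ± 0.07 (SD, n = 3 each). The log2 change was -0.50 (knockout minus wild type, SE 0.09, 95% interval -0.70 to -0.29). On a linear scale the knockout level was 70.9% of the wild type level (95% interval 61.6% to 81.6%). The change was larger in size than that of 95.6% of all genes, and the spread within groups was smaller than in all but 7.27% of them. Crebbp ranked 118th of 22180 genes by p-value and missed the threshold (limma adjusted p over all genes = 0.0948). Its adjusted p was 0.0486 when the dimmest 50% of genes were left out and 0.0263 with a variance that follows intensity, within a range of 0.0263 to 0.276 over 18 alternatives. By an exact permutation test (two-sided) p was 0.1, and no smaller value is possible with 3 arrays per group.

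Crebbp signal thus remained in all knockout tumours. The labels do not give the exons between the loxP sites, and a feature that covers the whole transcript may hold probes outside the deleted part, so the level of this feature is no measure of the share of recombined cells.

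**Figure D1:**
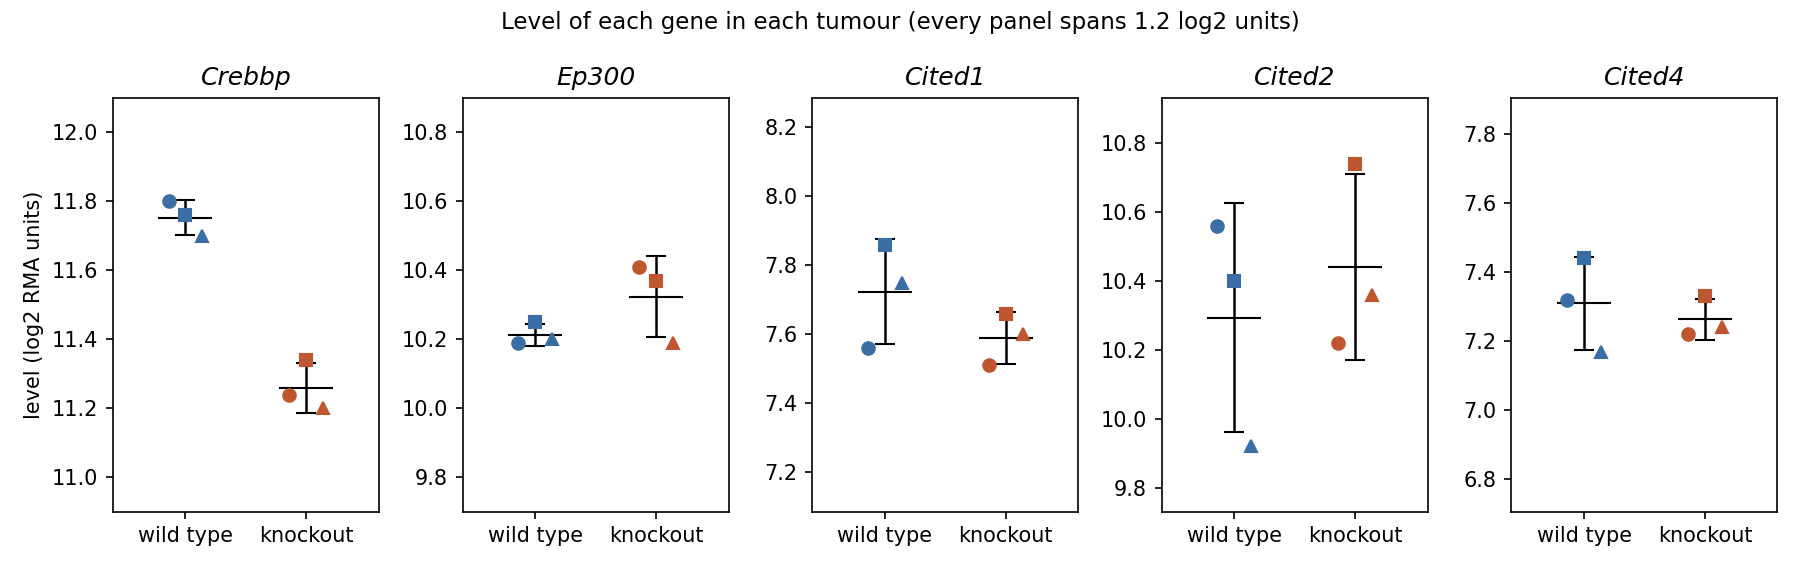
Level of Crebbp, Ep300, Cited1, Cited2 and Cited4 in log2 RMA units in each of 3 wild type (blue) and 3 knockout (red) tumours. Circles, squares and triangles are replicates 1, 2 and 3, horizontal lines with bars are means ± SD, and every panel spans 1.2 log2 units. The groups are apart for Crebbp and overlap for the other 4 genes.

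Ep300, the paralogue with the same enzymatic activity, measured 10.19, 10.25 and 10.20 log2 units in wild type and 10.41, 10.37 and 10.19 in knockout tumours. Knockout replicates 1 and 2 lay above all wild type tumours and knockout replicate 3 lay among them. Group means were 10.21 ± 0.03 and 10.32 ± 0.12 (SD, n = 3 each). The log2 change was 0.11 (SE 0.09, 95% interval -0.11 to 0.33, limma adjusted p = 0.652, exact permutation p = 0.3). A difference between the groups was not detected. The interval runs from 0.929 to 1.26 times the wild type level, so it leaves room for a rise of up to 1.26-fold but not for a larger one at this confidence. The change was 0.18 without knockout replicate 3 and 0.07 without knockout replicate 1, and in no alternative did Ep300 pass.

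The paralogues were also compared within each tumour. The log2 value of Crebbp minus that of Ep300 was 1.61, 1.52 and 1.50 in wild type and 0.83, 0.97 and 1.01 in knockout tumours. No knockout tumour reached the lowest wild type difference. The mean went from 1.54 ± 0.06 to 0.93 ± 0.10 (SD, n = 3 each), a shift of -0.61, and leaving out single tumours gave -0.64 to -0.55. This shift combines the changes of Crebbp (-0.50) and Ep300 (0.11) given above and is not a separate result. The exact permutation p (two-sided) was 0.1, the lowest this design can give. These differences compare the same 2 features between tumours and do not say which messenger RNA was the more abundant.

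**Figure D2:**
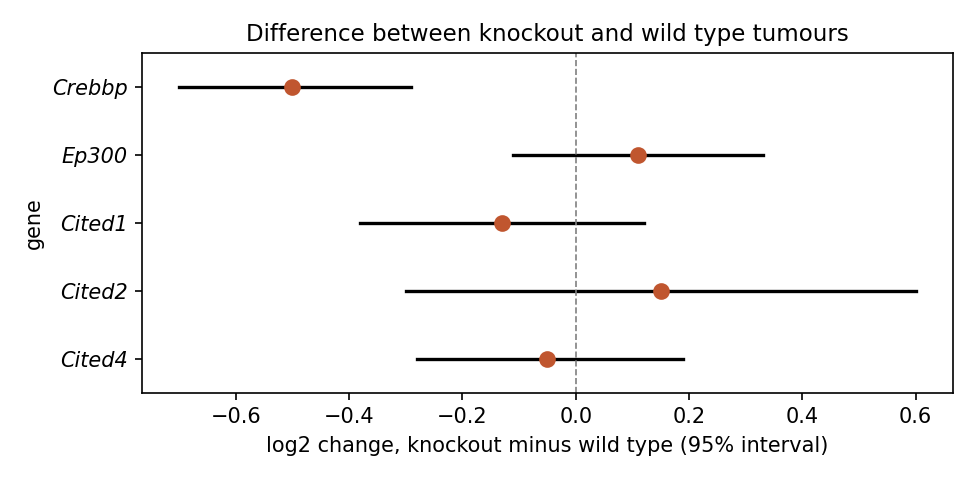
Log2 change of each gene, knockout minus wild type, with its 95% interval from the limma fit (points and lines). The interval of Crebbp (-0.70 to -0.29) lies below 0, and those of Ep300, Cited1, Cited2 and Cited4 span 0.

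Cited2, the family member that competes with HIF1A for CBP and p300, measured 10.56, 10.40 and 9.92 log2 units in wild type and 10.22, 10.74 and 10.36 in knockout tumours. Wild type replicate 3 was the lowest tumour and knockout replicate 2 the highest, and the groups overlapped. On average the level was 10.29 ± 0.33 and 10.44 ± 0.27 (SD, n = 3 each), a log2 change of 0.15 (SE 0.19, 95% interval -0.30 to 0.60, limma adjusted p = 0.789, exact permutation p = 0.6). Its spread within groups exceeded that of 91.5% of all genes and was the largest among the 5 described here. The direction was not stable to single tumours: leaving out wild type replicate 3 gave -0.04, leaving out knockout replicate 2 gave 0.00 and leaving out wild type replicate 1 gave 0.28. Levels between 0.812 and 1.52 times that of wild type tumours lie within the interval, so the arrays bound a change of Cited2 only loosely.

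Cited1 lies on the X chromosome. Its log2 levels were 7.56, 7.86 and 7.75 in wild type and 7.51, 7.66 and 7.60 in knockout tumours. Wild type replicates 2 and 3 lay above all knockout tumours, and wild type replicate 1 lay among them. On average these were 7.72 ± 0.15 and 7.59 ± 0.08 (SD, n = 3 each), a log2 change of -0.13 (SE 0.11, 95% interval -0.38 to 0.12, limma adjusted p = 0.639, exact permutation p = 0.3). Leaving out wild type replicate 1 gave a change of -0.21, and leaving out wild type replicate 2 one of -0.06. The knockout level was 0.769 to 1.08 times the wild type level by this interval from all arrays. Since the groups differ in sex, an effect of genotype on an X-linked gene and one of X dosage cannot be told apart. Over 899 X-linked genes the median log2 change was 0.03, against 0.00 over all genes. At an unadjusted p under 0.05 were 124 of them, 82 higher and 42 lower. Over all genes the shares were 7.24% higher and 6.51% lower.

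Cited4, on chromosome 4, measured 7.32, 7.44 and 7.17 log2 units in wild type and 7.22, 7.33 and 7.24 in knockout tumours. All knockout values lay within the wild type range. Their means were 7.31 ± 0.14 and 7.26 ± 0.06 (SD, n = 3 each), a log2 change of -0.05 (SE 0.10, 95% interval -0.28 to 0.19, limma adjusted p = 0.882, exact permutation p = 0.7), which became 0.02 on leaving out wild type replicate 2 and -0.12 on leaving out wild type replicate 3. The interval corresponds to 0.823 to 1.14 times the wild type level. The table has no detection calls. As a rough guide only, since probes differ in response, Xist in the wild type and 3 Y-linked genes in the knockout arrays gave 12 values of 4.31 to 5.74, all below those of Cited1 and Cited4.

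Members of the CITED family were set against each other in the same way as the paralogues, over 3 pairs. Cited1 minus Cited2 was -2.57 ± 0.42 in wild type and -2.85 ± 0.20 in knockout tumours (SD, n = 3 each), a shift of -0.28. It became -0.49 when wild type replicate 1 was left out, -0.08 when wild type replicate 3 was, and -0.17 when knockout replicate 2 was. For Cited1 minus Cited4 the shift was -0.08, which became -0.17 on leaving out wild type replicate 1 and 0.00 on leaving out wild type replicate 3. Cited2 minus Cited4 went from 2.98 to 3.18, a shift of 0.20 that was 0.32 without wild type replicate 1 and 0.08 without either wild type replicate 3 or knockout replicate 2. In each pair the groups overlapped, with exact two-sided permutation p-values of 0.4, 0.6 and 0.4 and an adjusted value of 0.6 for each over the 3 pairs. Unequal change among the 3 genes was therefore not detected, in a design where 0.1 is the lowest unadjusted p.

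**Figure D3:**
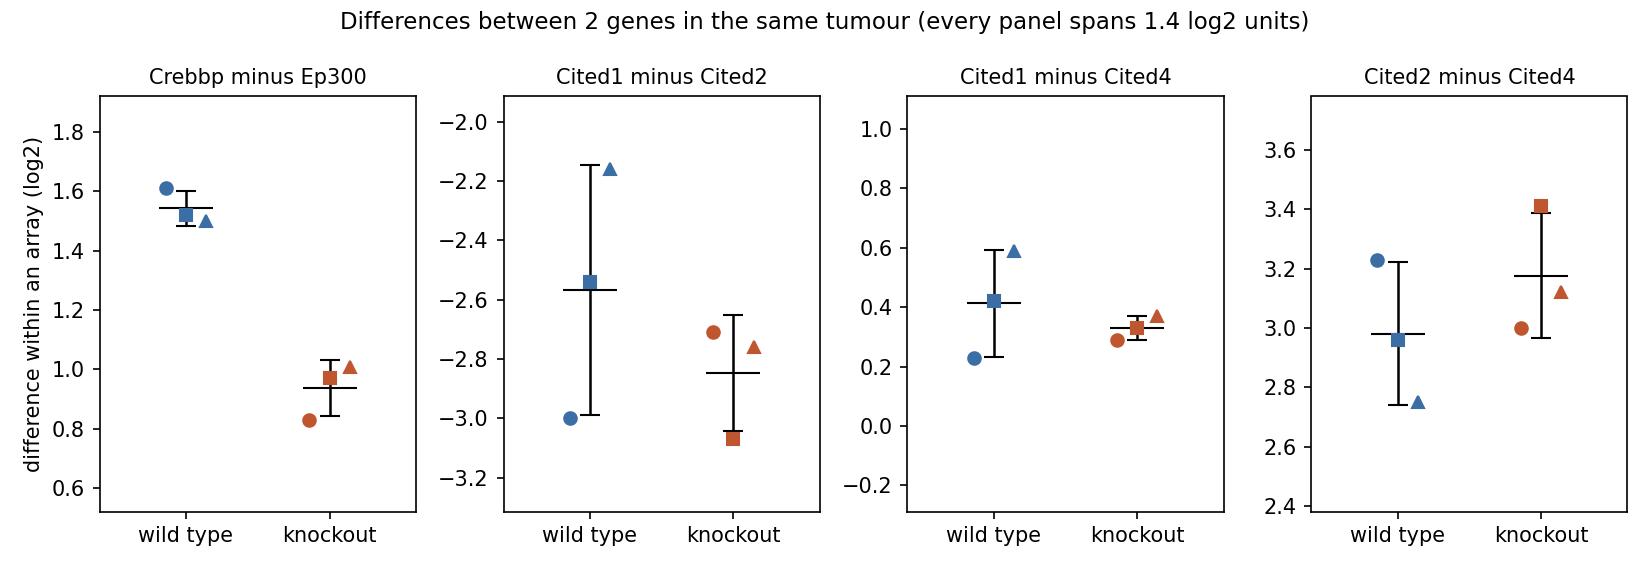
Difference of log2 values between 2 genes in the same tumour, for Crebbp minus Ep300 and the 3 CITED pairs, in wild type (blue) and knockout (red) tumours. Symbols mark replicates 1, 2 and 3 as circle, square and triangle, bars are means ± SD, and every panel spans 1.4 log2 units. The groups are apart for Crebbp minus Ep300 (1.54 against 0.93 on average) and overlap for the CITED pairs.

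Genes that bind CBP and p300, work with them or depend on them were taken from 6 lists. In these lists 0 genes passed the adjusted threshold over all genes in limma. Counts at an unadjusted p under 0.05, which 13.8% of all genes reached (7.24% with positive and 6.51% with negative changes), describe them further. Of 23 measured transcription factors that bind the pair, 8 had such a p, 5 with positive and 3 with negative log2 changes, and the median change was 0.06. Epas1, which encodes the HIF1A relative HIF2A, had mean log2 levels of 9.42 ± 0.31 and 8.76 ± 0.03 (SD, n = 3 each; log2 change -0.67, SE 0.15, adjusted p = 0.152). Crem, a factor of the CREB family, had 7.45 ± 0.03 and 7.80 ± 0.11 (log2 change 0.35, SE 0.09, adjusted p = 0.187). In both genes the groups did not overlap, as in 6 of the 23 factors measured, against 19.6% of all genes. Hif1a itself, named because CITED2 competes with its product, had levels of 10.40 ± 0.06 and 10.47 ± 0.04 (log2 change 0.07, SE 0.09, adjusted p = 0.783), and Creb1, for which CBP is named, lay at a log2 change of 0.07 (SE 0.09, adjusted p = 0.786). Of the TFAP2 factors, Tfap2a lay at 4.88 to 5.39 and Tfap2c at 5.30 to 5.60 in all tumours, in the range of the absent sex-linked genes. Tfap2b measured 5.21, 5.73 and 5.93 log2 units in wild type and 6.77, 5.70 and 6.82 in knockout tumours (log2 change 0.81, SE 0.32, adjusted p = 0.322). Its knockout replicate 2 lay among the wild type tumours. That value (5.70) and those of wild type replicates 1 and 2 (5.21 and 5.73) also lay in the range of the absent sex-linked genes.

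Of 13 measured coactivators, 1 had an unadjusted p under 0.05, and the median log2 change was -0.09. This gene was Ncoa1, a nuclear receptor coactivator that binds CBP, where the log2 change was -0.25 (SE 0.11, adjusted p = 0.357). Crtc2, a coactivator of CREB, had one of 0.22 (SE 0.09, adjusted p = 0.364). Of the EID family, inhibitors of CBP and p300 activity, 2 members were measured. Eid2 measured 10.03, 10.33 and 9.72 log2 units in wild type and 9.42, 9.45 and 9.53 in knockout tumours (log2 change -0.56, SE 0.15, adjusted p = 0.193). Its groups did not overlap, as was so for 19.6% of all genes. For Eid2b the log2 change was -0.29 (SE 0.15, adjusted p = 0.458), and its groups overlapped.

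The other lysine acetyltransferases stayed within a narrow band. Over 8 measured genes the log2 changes ran from -0.13 to 0.04 with a median of -0.02, and 0 had an unadjusted p under 0.05. The largest was that of Kat6a (-0.13, SE 0.08, adjusted p = 0.544), followed by Kat2a (-0.10, SE 0.11, adjusted p = 0.758), which is also in the list of coactivators, as is Kat2b. Against these stands the -0.50 of Crebbp, and the difference between Crebbp and this list was not tested.

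Targets of HIF, for which CITED2 is a brake, had a median log2 change of 0.01 over 15 measured genes, with 9 positive and 6 negative. At an unadjusted p under 0.05 were 3 genes, all with negative changes. Mxi1, a MYC antagonist, measured 10.92, 10.94 and 10.71 log2 units in wild type and 10.35, 10.35 and 10.23 in knockout tumours (log2 change -0.55, SE 0.10, adjusted p = 0.106). All knockout tumours were below all wild type tumours. The groups did not overlap in 3 of the 15 HIF targets, against 19.6% of all genes. Ddit4, an inhibitor of mTOR signalling, had a change of -0.56 (SE 0.15, adjusted p = 0.19). The third was the peptide hormone gene Adm (-0.42, SE 0.15, adjusted p = 0.288), named after its value was seen. Of 16 measured CREB targets, 2 had an unadjusted p under 0.05, and the median log2 change was 0.00, with 8 positive and 8 negative. They were the AP-1 gene Junb (-0.31, SE 0.10, adjusted p = 0.241) and Ppargc1a, a regulator of mitochondria (0.61, SE 0.22, adjusted p = 0.294).

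**Figure D4:**
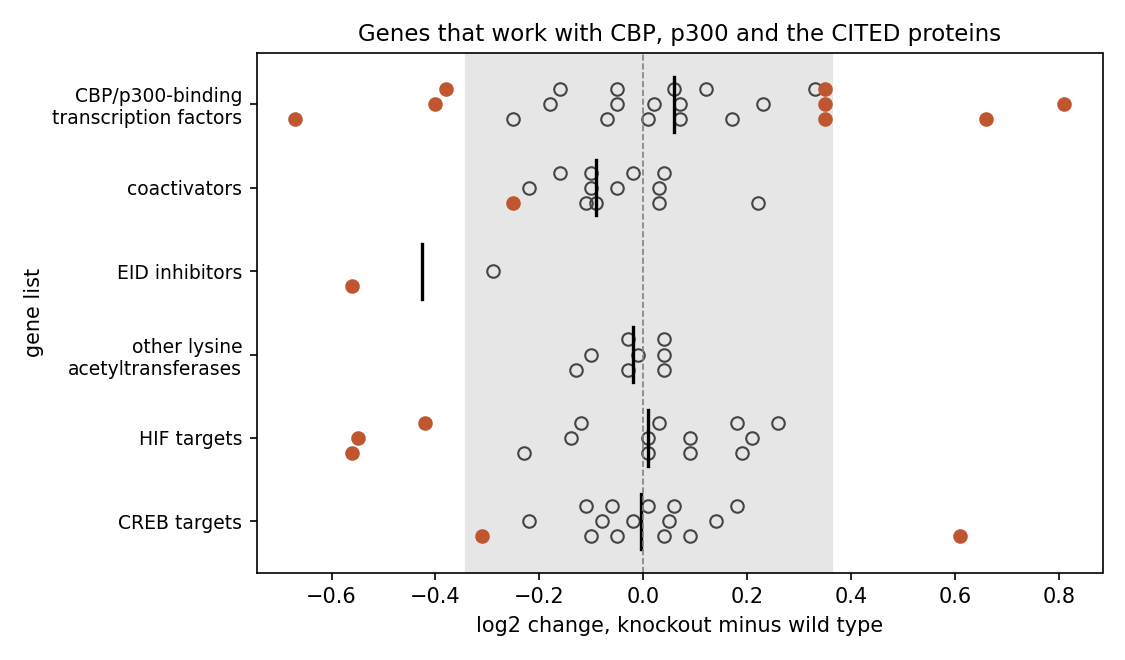
Log2 change, knockout minus wild type, of each measured gene in 6 lists. Filled points have an unadjusted p under 0.05, open points do not, and black bars are list medians. The grey band holds the values of all genes between their 5th and 95th percentiles (-0.34 to 0.36). Points lie on both sides of 0 in 5 of the lists, and both EID genes lie below it.

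Markers of the cell types in the tumours are given for the same arrays, because cells outside the Math1 lineage keep Crebbp. Their part in the difference of Crebbp was not tested. Linear values of a list were summed per tumour. Granule neuron progenitor and hedgehog tumour markers, the tumour's own type, had sums of 28336 to 31429 in wild type and 25451 to 28381 in knockout tumours, and 6 of 9 had an unadjusted p under 0.05 (2 higher, 4 lower), against 13.8% of all genes (7.24% higher, 6.51% lower). Atoh1, which drives the recombinase and marks these cells, averaged 11.58 ± 0.05 and 11.30 ± 0.33 on the log2 scale (SD, n = 3 each). Sums of Purkinje cell and inhibitory neuron markers were 651 to 1452 and 1223 to 3668 (5 of 5 higher at an unadjusted p under 0.05), and those of astrocytes and Bergmann glia 5979 to 13861 and 12441 to 14718 (3 of 7, all higher). Microglia and macrophage markers had 8657 to 9662 and 5987 to 7475 (5 of 8, all lower), and oligodendrocyte lineage markers 6701 to 7959 and 5137 to 5844 (3 of 6, all lower). The sums of the neuronal and the glial list overlapped between the groups, and those of the microglial and the oligodendrocyte list did not. All 8 microglial changes were negative, and groups did not overlap for 4 of the 8 (Cx3cr1, C1qa, C1qb and Ctss). They overlapped for Aif1 (-0.31), Csf1r (-0.29), P2ry12 (-0.03) and Tmem119 (-0.06), so the microglial sum does not describe every marker of these cells. Of the oligodendrocyte genes, only Pdgfra, the brightest (log2 change -0.45), had groups that did not overlap, as 19.6% of all genes did. Groups overlapped for Olig1 (-0.43), Sox10 (-0.69), Mbp (-0.16), Cnp (-0.17) and Mog (0.06), so that sum does not describe the whole lineage. No member of these lists passed the adjusted threshold, and the lists themselves were not tested.

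Sums for endothelium and pericytes (2180 to 2548 and 2270 to 3099), for fibroblasts and meninges (1723 to 2521 and 2460 to 3427) and for choroid plexus and ependyma (725 to 12741 and 714 to 867) overlapped between wild type and knockout tumours. The highest choroid plexus sum was that of wild type replicate 1, where the log2 levels of Ttr (13.52), Kl (9.22) and Folr1 (7.96) exceeded those in every other tumour. Those of lymphocytes were 379 to 430 and 306 to 362. No member of these lists passed the adjusted threshold.

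Genes beside the targeted locus were read in RefSeq gene order, 5 named genes on each side of Crebbp on chromosome 16. By limma, 0 of these 10 genes passed the adjusted threshold, and 3 were at an unadjusted p under 0.05, against 13.8% of all genes. For Trap1, the nearest on one side and a mitochondrial chaperone gene, the log2 change was 0.22 (SE 0.08, adjusted p = 0.298). Tfap4, a transcription factor gene, had one of -0.35 (SE 0.10, adjusted p = 0.223), and the predicted gene Gm5766 one of -0.31 (SE 0.12, adjusted p = 0.329). Beside Cited1 on the X chromosome, likewise 0 of 10 passed in limma and 3 were at an unadjusted p under 0.05. Of the 899 X-linked genes 13.8% had such a p, 82 higher and 42 lower. Hdac8, a histone deacetylase gene, lay at 8.83 and 9.23 (log2 change 0.40, SE 0.10, adjusted p = 0.168), Phka1 at 0.31 (SE 0.11) and Gm9112 at -0.29 (SE 0.10). Hdac8 and Phka1 thus had changes opposite in sign to that of Cited1, and Gm9112 one of the same sign. Among all 10 neighbours of Cited1, 4 changes were positive and 6 negative.

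For each of the 5 genes, the 3 genes of most like pattern over the 6 tumours were found among those brighter than the median gene. Each profile was centred, divided by its own SD and compared by root mean square distance, in which 0 is an identical pattern and the median gene lay at 1.19 to 1.28. The genes nearest to Crebbp were Lpcat2 (distance 0.07), which encodes an enzyme of phospholipid synthesis, Ralgds (0.10) and Gpsm1 (0.12). Ralgds and Gpsm1 had log2 changes of -0.37 and -0.47. Lpcat2 went from a mean of 8.67 to 7.67 and was among the 46 genes past the threshold (adjusted p = 0.0299). Cib1 (0.12), Itsn2 (0.15) and Mrps18a (0.16) were nearest to Ep300, Ak1 (0.13), Rabep2 (0.18) and Slbp (0.18) to Cited1, Ppp4r1l-ps (0.16), Dmwd (0.17) and Abtb1 (0.18) to Cited2, and Rtl5 (0.13), Trappc5 (0.15) and Afg3l1 (0.17) to Cited4. None of these 12 genes passed the adjusted threshold. With 6 tumours and 10601 candidates or more, close matches are found for any pattern. No CITED gene or acetyltransferase was among the nearest of another, but Cited4, dimmer than the median gene, was not a candidate and could not have been found.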

How the data were processed

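For 41345 features the authors deposited log2 values that the submitters' processing notes credit to RMA and oligo. Their versions and the array's genome build are not given in the sources used. RMA equalises array distributions and compresses changes of dim features. Array medians were 6.91 to 7.00. Samples were grouped by title.

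The platform annotation gave 23521 features 1 gene symbol, 1814 several, and 16010 were unnamed here; 99.2% of the first matched RefSeq (GRCm38.p6). The feature with the highest mean was kept per gene, leaving 22180 genes with no filter on level. They were fitted together in R 4.3.3 by limma 3.58.1 (eBayes after lmFit, two-sided, Benjamini-Hochberg over all genes, threshold 0.05, checked on simulated data). Changes are knockout minus wild type.

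Members and lists were chosen with earlier results of these data known. The rule for named genes took all members, genes past the threshold in a list or otherwise the 2 with the smallest p, neighbours with an unadjusted p under 0.05, and the 3 nearest patterns. Hif1a, Creb1, the TFAP2 genes and Atoh1 were added for their roles. Listed genes without a feature of 1 symbol (10 over the 6 lists) were not analysed here. Alternatives covered scaling, dim genes, variance model, array weights, features, X and Y genes, a replicate block and leaving out arrays.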

Additional observations from a re-analysis of the deposited data

How the results depend on the processing

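The change of Crebbp kept its direction in 18 alternatives (-0.54 to -0.45). It passed the threshold at -0.50 without the dimmest 50% of genes and with an intensity trend, and not in the other 16. Without single arrays it ranged from -0.54 to -0.47 (adjusted p = 0.0831 to 0.276). Ep300 (0.07 to 0.18 without single arrays) and Cited1 (-0.21 to -0.06) kept their direction and did not pass. Cited2 ranged from -0.04 to 0.28, turning without wild type replicate 3 and at 0.00 without knockout replicate 2, and Cited4 from -0.12 to 0.02, turning without wild type replicate 2. Crebbp minus Ep300 ranged from -0.64 to -0.55, Cited1 minus Cited2 from -0.49 to -0.08, Cited1 minus Cited4 from -0.17 to 0.00 and Cited2 minus Cited4 from 0.08 to 0.32. The genes past the threshold, 46 in all arrays, numbered 77 without the dimmest 25% of genes, 107 with an intensity trend, 22 over all features, 12 with a replicate block and 4 to 128 without single arrays; beyond the smaller or larger sets tested, the cause was not tested.

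Same-numbered tumours did not deviate together (correlations across genes of -0.03, 0.05 and 0.10), and wild type replicate 1 lay closest to knockout replicate 2 (0.11), so the numbers were not taken as pairs. With the replicate block Crebbp had an adjusted p of 0.155, and the block changed no call among the 5 genes. The list counts, 0 at the adjusted threshold also without the dimmest 50% of genes, were 8, 1, 1, 0, 3 and 2 at an unadjusted p under 0.05 for binding factors, coactivators, EID inhibitors, other acetyltransferases, HIF targets and CREB targets. The number of arrays and the missing detection calls limit what dim genes can show.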
